A study of Homo sapiens with 3 samples.

Results

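Interferon-induced transmembrane (IFITM) genes lie side by side near the end of the short arm of chromosome 11, and EP300 peaks at 4 of them, IFITM5, IFITM2, IFITM1 and IFITM3, are described here. Members were all peaks that the authors' annotation assigned to these gene names, and the locus was selected on its dense EP300 signal in these same lists, so its values are a description and carry no test. Replicate 1 held 11 such peaks among 65276, and replicate 2 held 13 among 64896. They formed 11 reproducible regions, that is, groups of overlapping peaks from both lists, of 46263 on chromosomes 1 to 22 and X.

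The maps came from ChIP-seq of EP300, a histone acetyltransferase and coactivator, in H9, an established human embryonic stem cell line. All cells were labelled WT and grown in the naive state on a mouse embryonic fibroblast layer in PXGL medium, which holds the MEK inhibitor PD0325901, the tankyrase inhibitor XAV939, the PKC inhibitor Gö 6983 and human LIF at 10 ng/mL. There were 2 EP300 samples in 1 group and 1 input sample without antibody, which has no peak list here. The labels do not tell if separate cultures were used, and the spread between these samples may be technical. The study had no interferon treatment, no second cell state and no second genotype among these samples.

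IFITM proteins are small membrane proteins. IFITM1, IFITM2 and IFITM3 are induced by interferons and hinder the entry of enveloped viruses by blocking membrane fusion, IFITM1 mainly at the cell surface and IFITM2 and IFITM3 mainly in endosomes. Pluripotent stem cells are known to express such antiviral genes without interferon. IFITM5, also called BRIL, is known from bone-forming cells and is not regarded as an antiviral gene. Interferon receptors signal through JAK kinases and STAT factors, which bind interferon-stimulated response elements (ISRE) and gamma-activated sites (GAS) in target promoters. EP300 at a site is no measure of transcription, and no expression data were used.

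The promoters of the members are shown because EP300 summits are placed below relative to their start sites and, for IFITM1 and IFITM3, to interferon motifs. Each runs 5′ to 3′ from 250 bases before to 10 bases after the RefSeq start site (GRCh38.p14). Capitals mark matches to the ISRE core GAAANNGAA or, in IFITM5 and at one place in IFITM3, to the GC box GGGCGG or its complement. Their positions are chr11:299517-299776 on the minus strand for IFITM5, chr11:313790-314049 on the plus strand for IFITM1 and chr11:320851-321110 on the minus strand for IFITM3. Of the 4 members, 3 matched the RefSeq promoter table, and IFITM2 did not.
IFITM5: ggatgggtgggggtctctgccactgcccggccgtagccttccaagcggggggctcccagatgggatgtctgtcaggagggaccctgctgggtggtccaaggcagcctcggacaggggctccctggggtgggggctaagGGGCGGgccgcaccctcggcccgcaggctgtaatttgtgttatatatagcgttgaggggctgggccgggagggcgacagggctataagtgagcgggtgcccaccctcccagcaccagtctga
IFITM1: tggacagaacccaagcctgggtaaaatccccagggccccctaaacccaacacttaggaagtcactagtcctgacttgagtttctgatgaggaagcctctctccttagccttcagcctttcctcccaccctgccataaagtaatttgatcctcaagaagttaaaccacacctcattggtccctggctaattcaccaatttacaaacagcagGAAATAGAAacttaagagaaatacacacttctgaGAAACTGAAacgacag
IFITM3: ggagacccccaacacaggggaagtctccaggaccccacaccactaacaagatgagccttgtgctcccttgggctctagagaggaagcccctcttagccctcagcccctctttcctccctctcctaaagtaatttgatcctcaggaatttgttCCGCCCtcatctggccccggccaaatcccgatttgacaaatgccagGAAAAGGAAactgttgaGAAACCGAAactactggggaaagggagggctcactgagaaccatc

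The promoters of IFITM1 and IFITM3 each held 2 ISRE cores. In IFITM1 these lay at -40 to -32 and at -6 to 3, so that the second crosses the start site, counted with no base 0. In IFITM3 they lay at -52 to -44 and at -35 to -27. Of 15813 coding-gene promoters of 300 bases in the table, 7.06% held at least 1 such match on either strand and 0.683% held 2 or more. IFITM1 also held a GAS match (TTCNNNGAA) at -12 to -4, a motif found in 6.98% of promoters, and its letters overlap the second ISRE core. GC boxes were present in IFITM5 and IFITM3, as in 58.5% of promoters. The motifs TGANTCA of AP-1 (5.75% of promoters), ATTTGCAT of POU factors (1.70%), GCCNNNGGC of TFAP2 (28.3%) and TATAAA (9.64%) were not found in any of the 3. Both strands were searched, and a match is only a match of letters.

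Promoters of IFITM1 and IFITM3 were also alike over their whole length. Aligned end to end over 300 bases, motifs included, they had 63.6% identical columns. This compares with 48% for IFITM5 with IFITM1 and 50% for IFITM5 with IFITM3. The longest identical run of IFITM1 and IFITM3 was 19 bases, starting at position -116 from the start site in IFITM1 and at -127 in IFITM3. It lay outside the marked motifs and is shown as the longest stretch these promoters share.
Shared run of IFITM1 and IFITM3: taaagtaatttgatcctca
The 250 bases before the start were 68% G or C in IFITM5, 54% in IFITM3 and 45.2% in IFITM1, with a median of 62.4% over the promoters in the table. How the authors treated reads that fit several places is not given in the sources used here, and its part in the values at these genes was not tested.

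All 4 genes had a promoter region assigned in both lists, as did 67.6% of 19974 protein-coding genes, so occupancy by itself says little about them. Several regions at 1 gene were less common. IFITM1 had 4, IFITM2 had 3 and IFITM3 had 3, and 13.9% of coding genes had at least as many as 3, while IFITM5 had 1. A promoter peak at or above percentile 90 of fold enrichment in both lists was present at IFITM2 and IFITM3, 2 of 4, and at 17.3% of coding genes. The IFITM3 peak covered the start, but its height came from a summit past the 3′ end of the gene. Summits beside the IFITM3 start were lower. In the authors' classes, all 11 peaks of replicate 1 and all 13 of replicate 2 were promoter peaks, 10 and 11 of them within 1 kb of an annotated transcript start. The authors' annotation used several alternative transcripts of IFITM1, IFITM2 and IFITM3, and many of these peaks lay far from the RefSeq start given below.

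**Figure D1:**
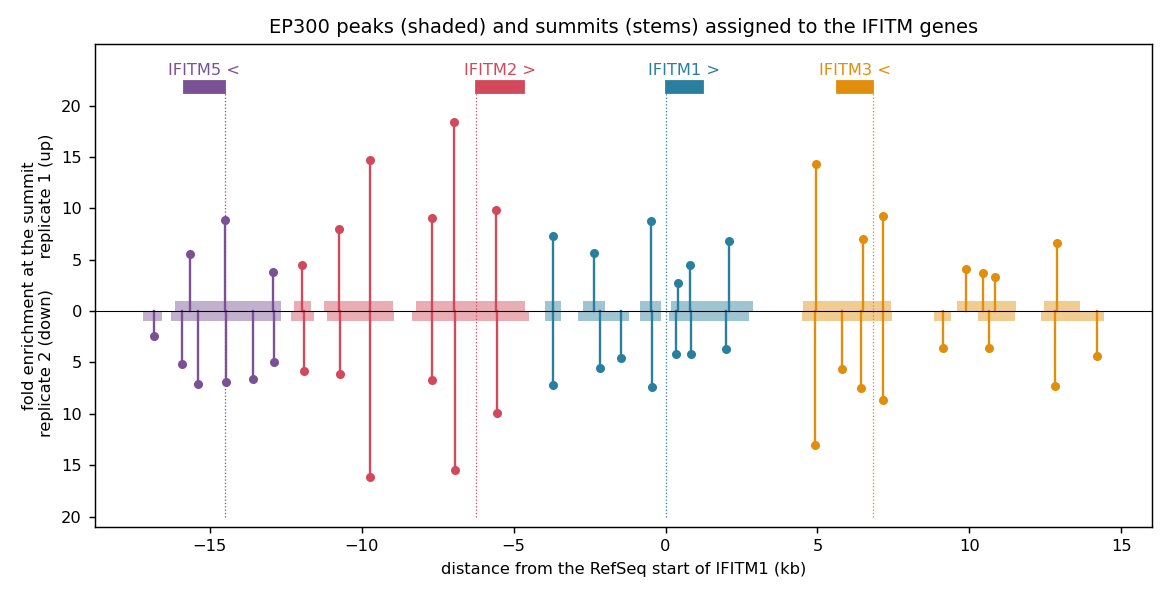
EP300 peaks (shaded) and summits (stems) assigned to IFITM5, IFITM2, IFITM1 and IFITM3, by distance from the RefSeq start of IFITM1 in kb, with fold enrichment of replicate 1 drawn upward and of replicate 2 downward. Bars at the top are the RefSeq genes with their direction and dotted lines their start sites. The tallest stems, at 18.4 and 16.2, belong to IFITM2, and no peak covers the RefSeq start of IFITM1.

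The map of peaks and summits shows wide, many-summited peaks. Each deposited row is 1 summit, and a joined peak may hold several. Of the IFITM peaks, 5 of 11 in replicate 1 and 4 of 13 in replicate 2 held 3 or more summits, against 3.95% and 3.86% of all peaks in the lists. Their median width was 1963 bp in replicate 1 and 1678 bp in replicate 2, where all peaks had medians of 748 bp and 781 bp. The narrowest measured 508 bp and the widest 3868 bp. Fold enrichment was taken as the caller's ratio of ChIP signal over background, at the highest summit of a peak. Its median was 7.34 and 7.10 for the IFITM peaks and 4.51 in each whole list. The IFITM peaks were all of the promoter class, while the whole lists also hold peaks of other classes. Values for promoter peaks alone are not given.

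IFITM2 carried the strongest EP300 signal of the members. The gene lies on the plus strand at chr11:307816-309395. Its highest peak of replicate 1 reached a fold enrichment of 18.4 (percentile 98.3), and that of replicate 2 reached 16.2 (percentile 96.6), with a mean of 17.3 ± 1.56 (SD, n = 2). These maxima were in different regions. The region over the gene and its start, chr11:305693-309560, had 18.4 in replicate 1 and 15.5 in replicate 2, and its highest summits lay at -753 and -708 bases from the RefSeq start, where a minus sign means upstream. It held 3 summits in each replicate, and the 1 after the start, at 654 and 687 bases, reached 9.87 and 9.96. The start site itself was inside this peak in both lists.

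The second IFITM2 region lay further upstream, at chr11:302806-305090, with fold enrichment 14.7 in replicate 1 and 16.2 in replicate 2. Its highest summits were at 304302 and 304301, 1 base apart, at -3514 and -3515 bases from the RefSeq start. They fell inside MRPS24P1, a pseudogene of a mitochondrial ribosomal protein gene annotated at chr11:303710-304376, 74 and 75 bases from its last base. A weaker region at chr11:301727-302485 had 4.50 and 5.83. Every IFITM2 summit of either replicate had a partner in the other within 200 bp.

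IFITM3 ranked next. It lies on the minus strand at chr11:319676-320860, and 1 region of 2946 bp, chr11:318543-321488, covered the whole gene with fold enrichment 14.3 and 13.0 in replicates 1 and 2 (13.7 ± 0.853, SD, n = 2), at percentiles 95 and 92.8. Its highest summit was not at the start of the gene. It lay 692 bases beyond the 3′ end in replicate 1 and 719 in replicate 2, which is 524 and 497 bases inside IFITM3-AS1, a non-coding RNA gene annotated on the same stretch (chr11:318460-333689). The summit just before the IFITM3 start, at -327 and -340 bases, had 9.25 and 8.62, and the 1 just after it, at 317 and 388 bases, had 7.05 and 7.45. Both ISRE cores of the printed promoter were inside the peak in both lists, 275 to 305 bases from the nearest summit.

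Further upstream, IFITM3 had a weak region at chr11:323624-325586, with 4.14 and 3.61, and a stronger one at chr11:326400-328482, with 6.59 and 7.30. Among IFITM regions found in both lists, the weak region had no summit that paired. Replicate 1 placed 3 summits in it, at 4.14, 3.66 and 3.30, and replicate 2 placed 1, at 3.61, which was not within 200 bp of any of the 3.

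IFITM1 showed a different arrangement. The gene lies on the plus strand at chr11:314040-315272 and had the most regions, 4, but the highest fold enrichment of any was 8.79 in replicate 1 and 7.37 in replicate 2 (8.08 ± 1.00, SD, n = 2), at percentiles 82.6 and 75.9. That region, chr11:313194-313886, ended before the RefSeq start, with summits at -466 and -454 bases. The next region, chr11:314161-316907, began after it. The start site lay in the 274 bp between them, outside every peak in both lists, and so did both ISRE cores. These cores were 355 to 426 bases from the nearest summit. The nearest summits to the start were 394 and 349 bases inside the gene and among the weakest at the locus, at 2.73 and 4.15.

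The remaining IFITM1 regions lay upstream, between the gene and IFITM2. At chr11:310077-310616 the fold enrichment was 7.34 and 7.23, with summits 5 bases apart. At chr11:311170-312847 it was 5.63 and 5.54. The region over the gene body was the least alike between replicates, with 6.83 and 4.17 (5.50 ± 1.88, SD, n = 2), and its highest summits were 1265 bp apart, past the 3′ end in replicate 1 and inside the gene in replicate 2. At the summit past the 3′ end, replicate 1 had 6.83 and replicate 2 had 3.71.

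IFITM5 had 1 reproducible region, chr11:297776-301390, of 3615 bp. The gene lies on the minus strand at chr11:298200-299526, so this region ran across all of it. Fold enrichment was 8.90 in replicate 1 and 7.10 in replicate 2 (8 ± 1.27, SD, n = 2), at percentiles 83 and 74.4. IFITM5 was the member with a summit closest to its start site, at -21 bases in replicate 1 with 8.90 and at -33 bases in replicate 2 with 6.95. Replicate 2 placed its maximum, 7.10, 872 bases inside the gene and had 5 summits in this peak where replicate 1 had 3. One more replicate 2 peak, at 2.43 (percentile 1.22), had no partner in replicate 1.

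By their highest fold enrichment, the genes ranked IFITM2, IFITM3, IFITM1 and IFITM5 by mean, at 17.3, 13.7, 8.08 and 8. The values of IFITM2 (18.4 and 16.2), of IFITM3 (14.3 and 13.0) and of the other genes did not overlap between replicates. IFITM1 (8.79 and 7.37) and IFITM5 (8.90 and 7.10) overlapped fully and did not differ beyond their spread. The median over all coding genes with a promoter region was 8.98, so IFITM1 and IFITM5 lay slightly below it and IFITM2 and IFITM3 above. For IFITM3 the value is that of the summit past its 3′ end. The IFITM3 summit just before the start had 9.25 and 8.62, close to that median and to IFITM1 and IFITM5. Fold enrichment, taken here as a ratio over background, is given per summit and not per gene length. IFITM2 and IFITM3 kept their order within each list, while IFITM5 was above IFITM1 in replicate 1 and below it in replicate 2.

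**Figure D2:**
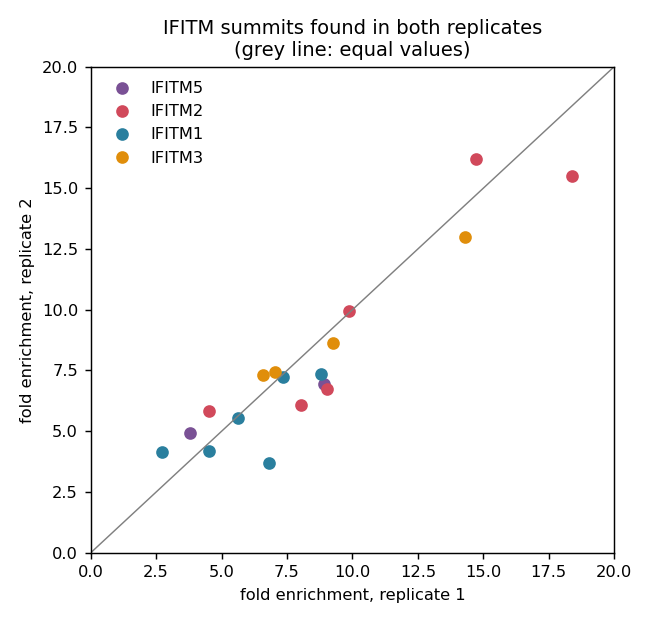
Fold enrichment of the 18 IFITM summits found in both replicates within 200 bp, replicate 1 against replicate 2, coloured by gene, with a grey line of equal values. The IFITM2 and IFITM3 summits above 12 stand apart from the rest, and the point farthest below the line is the IFITM1 summit at 6.83 and 3.71.

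Replicate 1 had 22 summits at these genes and replicate 2 had 27, and 18 of them paired within 200 bp, at a median distance of 31 bp. Of the paired summits, 11 were higher in replicate 1 and 7 in replicate 2, and the ratio of replicate 2 to replicate 1 ran from 0.544 to 1.52 with a median of 0.958. The unpaired summits, 4 in replicate 1 and 9 in replicate 2, all belonged to IFITM5, IFITM1 or IFITM3. For whole regions, the highest summits of both lists lay a median of 56 bp apart at the IFITM genes and 59 bp over all regions. In the plot of paired summits, the strongest sites of replicate 1, 2 at IFITM2 and 1 at IFITM3, were also the strongest of replicate 2.

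**Figure D3:**
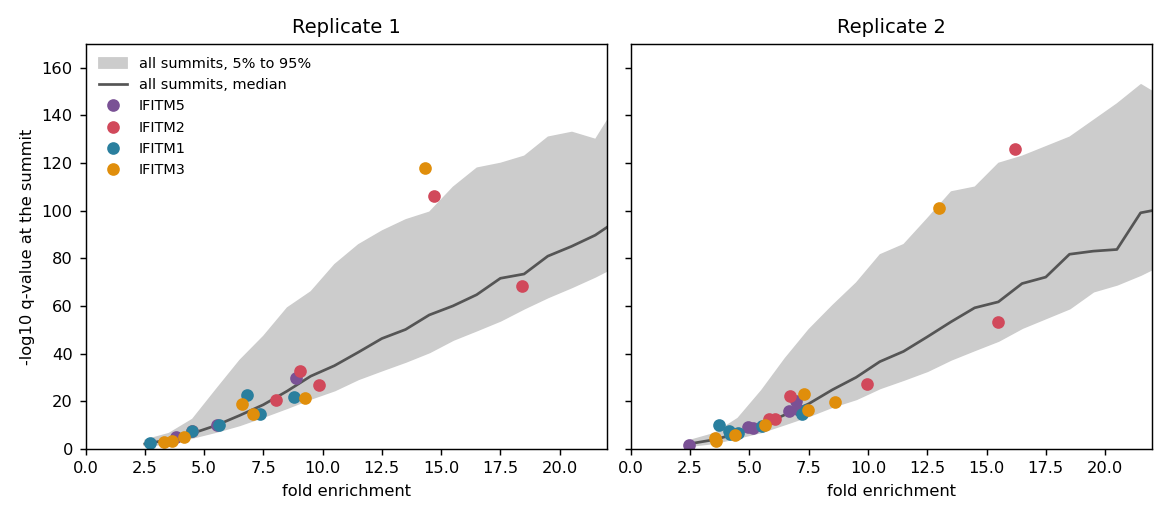
The -log10 q-value against fold enrichment at each IFITM summit in replicates 1 and 2, with the median and the 5% to 95% range of all summits in each list in grey. The IFITM2 summit in MRPS24P1 and the IFITM3 summit past the 3′ end lie near or above the upper edge of the grey band in both lists.

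Summits of like fold enrichment differed in their q-values. The IFITM2 summit in MRPS24P1 had a -log10 q-value of 106 in replicate 1 and 126 in replicate 2, while the IFITM2 summit nearer the start had 68.2 and 53.4 at similar fold enrichment. The IFITM3 summit past the 3′ end had 118 and 101. Among all summits within 5% of its fold enrichment, the IFITM3 summit was matched or passed in -log10 q by 1.95% in replicate 1 and 6.18% in replicate 2, where the medians of such summits were 54.8 and 50.6. For the summit in MRPS24P1 these shares were 4.42% and 3.29%. For the other IFITM2 summit they were 64.7% and 73.6%, so that summit was ordinary for its height. The plot of q-value against fold enrichment shows the remaining IFITM summits below a -log10 q-value of 50. Input signal at these places was not analysed here.

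The IFITM genes stood in one of the densest stretches of the map. The span of the 4 genes with 3 kb on each side, chr11:295200-323860, measured 28661 bp and held 9 reproducible regions by their midpoints. Windows of this length tiled along the chromosomes, 105701 in all, held a mean of 0.438 regions, and 0.0369% of them, 39 windows, held 9 or more. The tiled windows that overlap the span, 2 in number, held 8 and 9. Regions covered 67.6% of the span, where the mean window was covered to 2.05%, and 0.0104% of windows, 11 in all, were covered as much or more. The most covered window reached 80.7%. The locus was chosen for this density, so these ranks describe it and support nothing further.

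**Figure D4:**
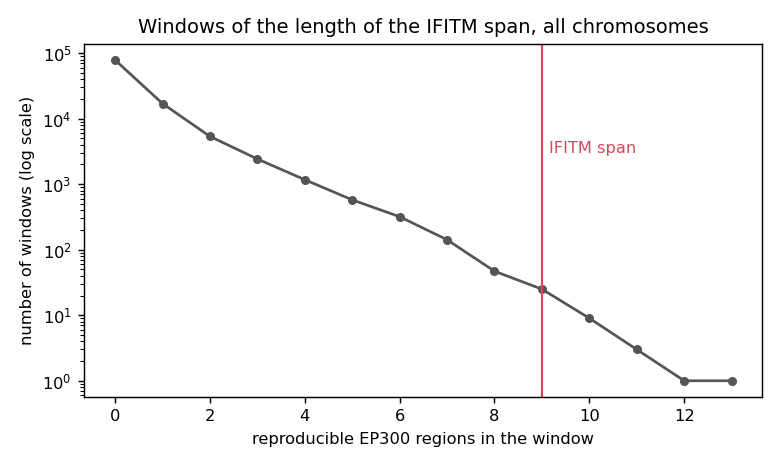
Number of windows, on a log scale, by the count of reproducible EP300 regions in them, for 105701 windows of 28661 bp. The red line marks the IFITM span with 9 regions, and 14 windows held more.

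Joined across gaps of up to 5 kb, the IFITM regions belonged to 1 cluster of 16 regions over 46.0 kb, chr11:297776-343756. Of 32091 such clusters, 8 held 16 or more, which is 0.0249%, and the largest held 18. With gaps of up to 2.5 kb the cluster was the same, and no other of 35957 clusters held as many. The cluster began at IFITM5, took in all 11 IFITM regions and ended beyond IFITM3. The other 5 regions were assigned to the unnamed genes ENSG00000255328, with fold enrichment 11.9 and 10.2, and ENSG00000270972, with a maximum of 9.14 in replicate 1 and 7.51 in replicate 2. With gaps of up to 1 kb it broke between IFITM1 and IFITM3, leaving 8 regions over 19.1 kb with IFITM5, IFITM2 and IFITM1.

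Within 100 kb of the genes there were 33 reproducible regions, 11 of them at the IFITM genes. On the side of IFITM5, the nearest region belonged to PGGHG, a glucosidase gene, with 7.18 and 5.70. On the side of IFITM3, B4GALNT4, a glycosyltransferase gene, had 4 regions with maxima of 10.7 and 12.3. PKP3, which encodes the desmosome protein plakophilin, had 2 with maxima of 9.57 and 10.9, and SIGIRR, an inhibitory receptor of the interleukin and Toll-like receptor family, had 2 with maxima of 18.4 in both lists. SIGIRR was thus as high as IFITM2. BET1L (12.4 and 12.9), SIRT3 (4.52 and 5.19), ENSG00000255026 (5.11 and 5.64), ENSG00000289568 (12.5 and 16.8) and ANO9 (2.28 and 2.79) had the remaining regions, with 1 more shared by SIRT3 and PSMD13.

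The windows most like the IFITM span, by their count of regions and then by summed fold enrichment, also held 9 regions. The span summed to 85.7, and the nearest window, on chromosome 20 at ID1, an inhibitor of helix-loop-helix factors, summed to 90.4. The next lay at RPL17P34 on chromosome 10 (74.9), at PODXL on chromosome 7 (74.8), at ZBTB46 on chromosome 20 (70.6) and at ENSG00000233625 on chromosome 20 (64.3). None of these windows held more than 1 coding gene. The IFITM span was laid out around its 4 genes, so its own count follows from its definition.

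Relatives of the IFITM genes and the genes of the interferon pathway were set beside them. The other 9 dispanin genes, which share the CD225 domain with IFITM proteins, all had a promoter region, 100% against 67.6% of all coding genes, with a median fold enrichment of 5.30 (mean of both lists). TMEM233 had 12.8 in replicate 1 and 13.8 in replicate 2, PRRT2 had 16.6 and 11.9, SYNDIG1 had 11 and 12.8, and PRRT1 had 7.56 and 6.68. IFITM10, named after its values were seen, had 1 region with 3.89 and 6.70. SYNDIG1L had 5 regions and SYNDIG1 had 4, so several regions at a gene were not limited to the clustered IFITM genes.

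Interferon receptors were occupied at 5 of 6 promoters, 83.3% against 67.6% of all coding genes. Their median was 14.0, where all coding genes with a promoter region had 8.98. IFNAR2, a subunit of the receptor for type I interferons, had 15.9 in both lists. IFNGR2 had 15.5 and 13.9, IFNLR1 had 14.5 and 13.6, IFNAR1 had 11.6 and 9.99, and IFNGR1 was the receptor gene with 2 regions. IL10RB had no region assigned, but a reproducible region lay within 3 kb of an end of its RefSeq gene. Signal transducers were occupied at 9 of 11 promoters (81.8%), with a median of 12.7. With so few genes per list, differences from all coding genes were not tested. USP18, a feedback inhibitor of receptor signalling, was the highest at 20.9 and 17.4, followed by JAK2 (18.4 and 17.4), JAK1 (16.0 and 15.1) and TYK2 (13.8 and 13.9). IRF1 and IRF2 had 4 regions each, as USP18 did. STAT2 and IRF9, whose proteins are parts of the factor that binds the ISRE, had no region assigned, and STAT2 had 1 within 3 kb of a gene end.

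Of the interferon genes looked up, 0 of 8 had a promoter region in both lists, where 67.6% of all coding genes had one. Genes of the IFNA family were not among them. IFNB1, IFNK, IFNG, IFNL2, IFNL3 and IFNW1 had no region assigned at all, and IFNE and IFNL1 had 1 each outside the promoter class. By position, 3 of the 8 had a region within 3 kb of a RefSeq gene end. Sensors of foreign RNA and DNA were occupied at 9 of 10 (90%), at a median of 5.20 against 8.98 for all coding genes with a promoter region. These differences were not tested. The adaptor gene MAVS had 14.8 and 16.9 and the kinase gene TBK1 had 16.2 and 15.1, while the helicase genes DHX58 (9.57 and 8.44) and RIGI (7.14 and 6.49) were lower. IRF3 was the exception, with no region assigned and 1 within 3 kb of a gene end.

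**Figure D5:**
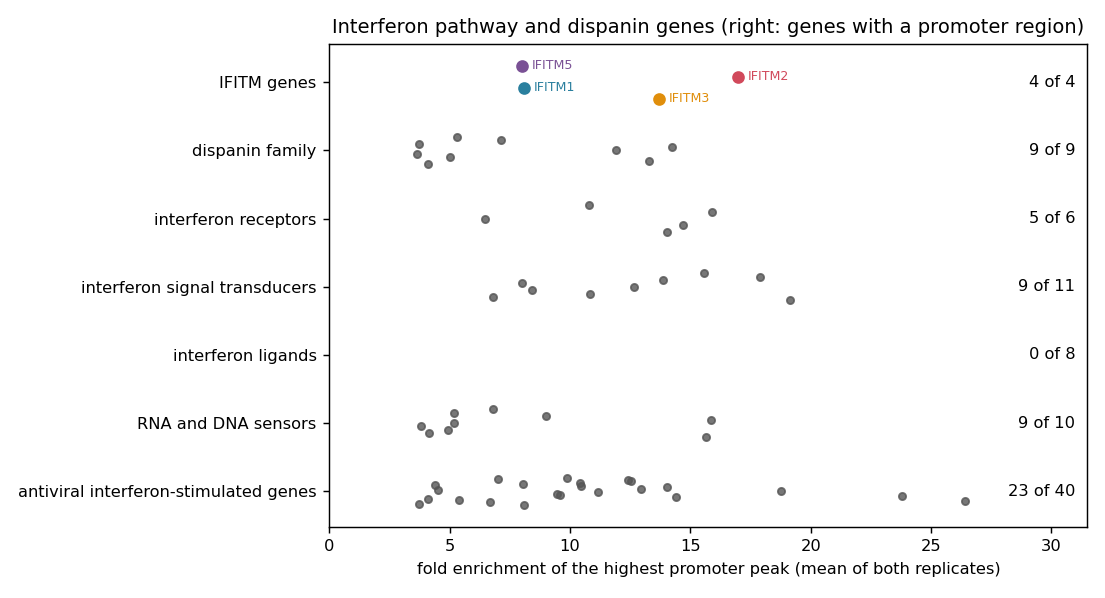
Fold enrichment of the highest promoter region, as the mean of both replicates, for the IFITM genes (coloured) and for each gene with a promoter region in the dispanin list and the interferon pathway lists (grey). Numbers at the right give genes with a promoter region of genes in the list, from 0 of 8 ligands to 9 of 9 dispanins. Of all coding genes, 67.6% had such a region.

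Of the other antiviral interferon-stimulated genes, 23 of 40 had a promoter region, 57.5% against 67.6% of all coding genes, and 17 had no region assigned. By position, 26 of the 40 had a region within 3 kb of a RefSeq gene end. The 23 with a promoter region had a median fold enrichment of 9.86. Of the 40, 3 (MX1, ISG20 and APOBEC3B) had 3 or more regions, where 13.9% of all coding genes did. LY6E, which encodes a membrane-anchored protein that affects virus entry, had 24.8 and 28.0, and ZC3HAV1, the gene of a zinc finger protein that binds viral RNA, had 22.1 and 25.5. TRIM25 (19.0 and 18.5) and SHFL (14.5 and 14.3) followed, and ISG20 and APOBEC3B had 4 regions each. Members of other interferon-induced families, named after their values were seen, varied from no peak to several regions. GBP1, GBP2, GBP3, GBP4 and GBP5 had no peak in either list. IFIT1, IFIT2 and IFIT5 had none assigned, though a reproducible region lay within 3 kb of a gene end of IFIT5. IFIT3 had a promoter maximum of 4.58 and 4.21. OAS3 had 8.82 and 7.26, and OAS1 had none. MX1 had 3 regions with a maximum at the promoter of 6.86 and 7.12, and MX2 had 2 regions with 11.9 and 12.9. APOBEC3B reached 11 and 7.88, and APOBEC3G had 1 region with 8.63 and 10.5. Differences between these families and the IFITM genes were not tested.

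Marker genes of the labelled cell type and of other cell types were looked up in the same way, against the 67.6% of all coding genes with a promoter region. Such regions were present at 6 of 6 naive and 5 of 5 general pluripotency genes, at 4 of 6 fibroblast genes and at 3 of 5 osteoblast genes. The median fold enrichment of the highest promoter region was 6.65 for the naive and 15.5 for the general pluripotency genes. It was 8.19 for the fibroblast and 9.79 for the osteoblast genes, with 8.98 over all coding genes with a promoter region. Within the naive list, TFAP2C had 22.4 in replicate 1 and 27.1 in replicate 2, while KLF17 had 2.90 and 6.88. DPPA5 had 6.72 and 6.1 at its promoter, but 22 and 28.1 at its highest peak of any class. Within the general list, LIN28A had 21 and 23.9, NANOG had 5.21 and 6.19 and SOX2 had 3.69 and 3.63. Among fibroblast genes, COL1A2 had 18.2 and 20.1, while TWIST1 and LUM had no reproducible region assigned. The lists overlapped in height, and differences between them were not tested. Among osteoblast genes, the cell type in which IFITM5 is known, RUNX2 had 15.2 and 17.1, ALPL had 9.18 and 10.4 and SP7 had 4.94 and 5.51, while BGLAP and IBSP had no peak in either list. IFITM5, with 8.90 and 7.10, lay between SP7 and ALPL by its mean. Marker genes are named here after their values were seen.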

How the data were processed

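EP300 ChIP-seq peak lists of 2 samples were analysed. The authors deposited 1 annotated list per sample, called against input by the names of the files and peaks, so peaks were called per sample. Per the file headers, each row is a summit with a signal value, taken as the fold enrichment (a ratio), a -log10 p-value, a -log10 q-value and a score, which by its values is 10 times the -log10 q-value and was not used. The submitters' processing notes name fastp 0.19.11 and GRCh38. For aligner, caller, threshold, duplicates and read placement, nothing is given in the sources used here. Depth is unknown because the lists hold no read counts. The largest deposited q was 0.0497 in replicate 1 and 0.0498 in replicate 2.

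Rows of equal interval were joined, and a joined peak took the fold enrichment and position of its strongest summit and its largest -log10 q-value. Percentiles are ranks within 1 list on chromosomes 1 to 22 and X. Peaks overlapping by at least 1 bp between lists formed reproducible regions. A region counts for a gene if both lists assign it a peak there. Of 29712 gene names in the lists, 15251 matched the 19974 coding RefSeq genes by symbol and 199 by an older symbol. Start sites and promoters are RefSeq GRCh38.p14, with strand from the authors' annotation. Promoters were aligned globally with Biopython 1.88. Joining and overlap were tested on simulated peak lists. The members, gene lists and rules were chosen with earlier results of these data known. Genes named are the members, genes with regions within 100 kb, and, per list, up to 4 highest by percentile, those with most regions and those without any where few. Other genes are marked as named after their values were seen. Alternatives were stricter thresholds, other overlap rules, 1 replicate alone, and other windows and assignments.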

Additional observations from a re-analysis of the deposited data

How the results depend on the processing

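Of the counts that answer a comparison, 27 values under the alternatives stayed within 1.5 times the main count and 2 did not. Counting every deposited summit gave a mean of 24.5 IFITM peaks per list in place of 12, and windows centred on protein-coding genes gave 0.105% with as many regions as the IFITM span in place of 0.0369%. IFITM regions numbered 11, and 8 to 13 over the alternatives, with 8 at a fold enrichment of at least 5. Leaving out 1 replicate gave 11 to 13. Of the single-gene values, IFITM5 moved from 1 region to 2 without replicate 1, from a peak at 2.43. Interferon and dispanin genes with a promoter region numbered 55 of 84, a share near the 67.6% of all coding genes. The number ran from 43 at a fold enrichment of at least 5 to 62 by position. Shares of all coding genes under these alternatives are not given. No paired analysis was possible because the series has 1 EP300 group and no peak list for the input. With 2 samples and no read counts, depth sets an unknown limit on weak peaks.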

Other observations

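Genes most like each member in both lists were taken from those with the same number of regions, by the summed absolute log2 difference in fold enrichment of the promoter region with the highest sum over both lists. For IFITM2 this is the region over its start, with 18.4 and 15.5, and not the upstream region that holds its maximum of replicate 2, 16.2. For IFITM2, among 1158 coding genes with 3 regions, these were ZIC2 (18.3 and 15.8, summed difference 0.03), CYP27C1 (19.0 and 15.2, 0.07) and PHGDH (17.6 and 15.6, 0.07). For IFITM3 they were CAPZB (14.4 and 13.0, 0.02), LCN12 (14.5 and 13.1, 0.03) and GPSM1 (14.4 and 12.8, 0.04). For IFITM1, among 577 genes with 4 regions, they were GRHPR (8.92 and 7.45, 0.04), DLC1 (8.77 and 7.58, 0.04) and TKT (8.42 and 7.43, 0.07). For IFITM5, among 8173 genes with 1 region, they were RPUSD2 (8.88 and 7.08, 0.01), RELL1 (8.92 and 7.06, 0.01) and UBLCP1 (8.79 and 7.12, 0.02). The likeness rests on 2 values per gene.

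Within the IFITM span, 3 peaks were found in 1 list alone. In replicate 1, a peak assigned to ENSG00000251661 lay between IFITM1 and IFITM3 with fold enrichment 3.65 (percentile 29.7). In replicate 2, the IFITM3 peak at chr11:322879-323427 had 3.56 (percentile 27.5) and the IFITM5 peak at chr11:296833-297455 had 2.43 (percentile 1.22).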
